A study of Mus musculus with 18 samples.

Results

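The genes described here regulate or mark the germinal center, and their RNA was followed from naive B cells through germinal center B cells to plasma cells, in mice with and without the de novo DNA methyltransferases. The set held 10 genes, namely Bcl6, Mef2b, Mef2c, Pou2af1, Fas, Mybl1, Rgs13, Basp1, Foxo1 and Id3. They were picked by name from the 21761 genes of the deposited expression table, each of the 10 had 1 row there, and all 10 passed the filter that left 11522 genes for testing. Between naive and germinal center B cells most of them fell into 2 kinds. Mef2b, Fas, Mybl1, Rgs13 and Basp1 were higher in germinal center B cells of both genotypes, while Bcl6, Mef2c and Id3 were already expressed in naive B cells and dropped in plasma cells. Foxo1 passed the test as lower in germinal center B cells of mice with the methyltransferases alone. Pou2af1 was higher there but passed the test in neither genotype. No difference between the genotypes passed the test for any of the 10.

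The germinal center is the site in a lymph node where B cells that have met antigen divide, mutate their antibody genes and are selected. Bcl6 is a transcriptional repressor that the germinal center cannot form without, Mef2b and Mef2c are MADS-box transcription factors, and Pou2af1 (also called OBF-1 or Bob1) is a coactivator that works with the octamer-binding factors on DNA. Foxo1 is a forkhead factor active in the dark zone, where the cells divide, and Id3 is an inhibitor that holds E proteins off DNA. Fas is a death receptor and, with GL7, a surface marker of these cells. Rgs13 dampens signals from chemokine receptors, Mybl1 is a relative of the transcription factor Myb, and Basp1 is a membrane-associated protein first studied in neurons. Plasma cells, which secrete antibody, shut off much of this program, and Bcl6 and the plasma cell factor Prdm1 repress each other.

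The study asked how gene expression along this path depends on Dnmt3a and Dnmt3b, the enzymes that methylate DNA at new sites. RNA-seq libraries came from 5000 sorted cells each, 3 libraries in each of 6 groups and 18 in all. Naive B cells (nB) were B220+ Fas- GL7- and came from lymph nodes of mice that had not been immunized. The sort for germinal center B cells (GCB) took B220+ Fas+ GL7+ lymph node cells that bound phycoerythrin (PE), and plasma cells (BMPC) were CD138+ cells of bone marrow, both taken 30 days after immunization with PE in adjuvant. All mice carried floxed alleles (Dnmt3a fl/fl Dnmt3b fl/fl) on a B6;129S4 background (alleles Dnmt3atm3.1Enl and Dnmt3btm5.1Enl by the labels, though the study's methods name Dnmt3atm3.2Enl) and were 8 to 12 weeks old when experiments began. Dnmt3-deficient mice also carried 1 allele of a Cre driver of the B lineage and Dnmt3-sufficient mice carried no Cre, so the groups differed in Cre as well as in Dnmt3a and Dnmt3b. This Cre acts from early B cell development on, so naive cells of the deficient mice had already met it. Each GCB library pooled 2 mice. Libraries came from mice of both sexes, 10 of them female and 8 male.

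The libraries matched their labels by cell type markers. Summed FPKM (fragments per kilobase of exon, scaled to the size of the library) of 5 germinal center markers was 744 to 787 in GCB, 0.947 to 7.05 in nB and 0 to 19.5 in BMPC. Depth was 6692516 to 8987922 reads on genes in nB and 7644544 to 8903872 in GCB, but only 1355231 to 3803197 in BMPC, so low genes were more often at 0 there. The BMPC libraries also held RNA of other bone marrow cells. All 6 neutrophil markers were at 0 in every nB and GCB library and summed to 9.37 to 582 in BMPC, although the gate removed Ly6-G+ and CD11b+ cells. The 5 early B cell markers summed to 308 to 627 in BMPC against at most 22.5 elsewhere, and 4 erythroid markers to 149 to 2194 against at most 218. Summed T cell markers were 30.9 to 98.5 in BMPC and 17.3 to 51.9 in nB, although the gate also held an antibody to CD90.2 of T cells, and macrophage markers 63.5 to 227 and 1.70 to 73.9. The part of these cells in the BMPC values below was not tested. Over the whole gene, Dnmt3a ran from 2.35 to 5.18 FPKM in Dnmt3-sufficient and from 2.24 to 4.33 in Dnmt3-deficient nB, and Dnmt3b also overlapped there. In GCB, Dnmt3b was at 0 to 0.676 FPKM in Dnmt3-sufficient and higher, at 0.744 to 1.10, in Dnmt3-deficient libraries. Dnmt3a in GCB and both genes in BMPC overlapped between the genotypes. Counts over all exons do not resolve the floxed ones.

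**Figure D1:**
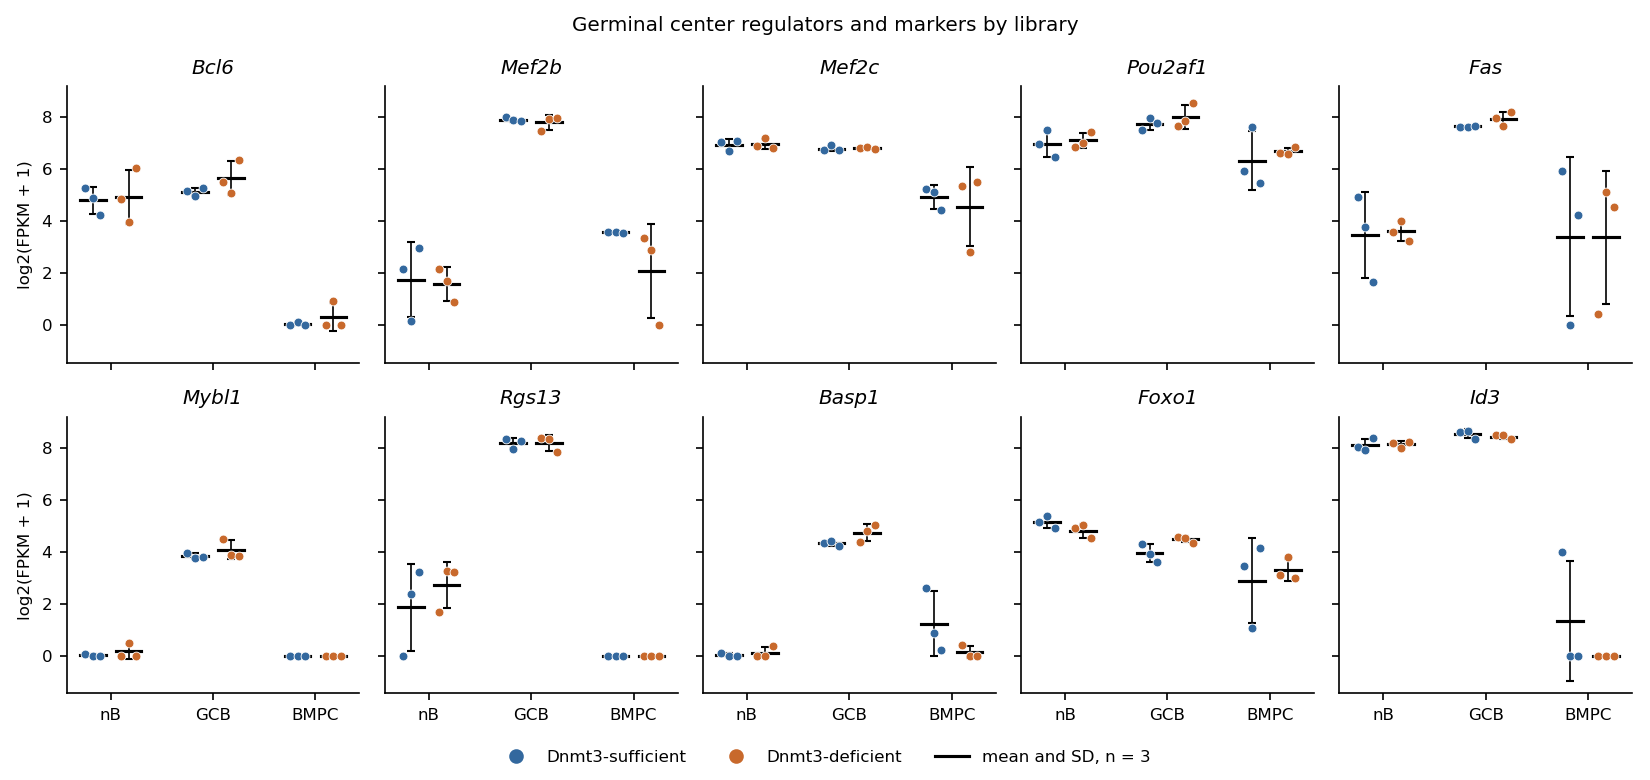
Level of each of the 10 genes in every library, as log2(FPKM + 1) on the vertical axis, by cell type and genotype (blue, Dnmt3-sufficient; orange, Dnmt3-deficient). Points are libraries and black bars are the mean with its SD, n = 3. The points for Mef2b, Fas, Mybl1, Rgs13 and Basp1 stand above those of both other cell types in GCB, while Bcl6, Mef2c and Id3 fall only in BMPC.

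The first comparison asked which of the 10 genes differed between GCB and nB. Of the 10 genes, 6 changed in Dnmt3-sufficient mice, 5 upward and 1 downward. Among all 11522 genes tested, 11.4% were called higher and 15% lower in that comparison. In Dnmt3-deficient mice 5 of the 10 changed, all upward, where 10% of all genes were called higher and 13.5% lower. Calls needed both a limma p, Benjamini-Hochberg adjusted over all genes tested, no larger than 0.05 and a log2(FPKM + 1) difference no smaller than 1. For the 10 genes the median change was 2.29 (Dnmt3-sufficient) and 2.42 (Dnmt3-deficient), against -0.11 and -0.13 over all genes. The genes were picked as germinal center genes with earlier results of these data known, so a shift toward GCB was partly built in. Fas protein was part of the sorting gates, and Mybl1 and Basp1 could enter the test only by being high in GCB. Comparisons with a cell type in common share its libraries. Immunization parted nB from GCB and BMPC, and tissue parted BMPC from nB and GCB, so neither can be told apart from cell type. In these bulk samples fewer cells that express a gene and less RNA per cell cannot be told apart.

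Rgs13 (chr1:145985797-146024502, minus strand, genome build mm9) was low in nB and among the highest of the 10 in GCB. Its FPKM in nB was 0, 4.14 and 8.27 in the 3 Dnmt3-sufficient libraries and 2.21, 8.59 and 8.28 in the 3 Dnmt3-deficient ones. GCB libraries had 321, 249 and 304 in Dnmt3-sufficient and 336, 325 and 231 in Dnmt3-deficient libraries. The lowest GCB library was far above the highest nB library. The rise was 6.32 ± 0.71 (SE, limma adjusted p = 9.1e-05) on the log2 scale in Dnmt3-sufficient and 5.48 ± 0.71 (limma adjusted p = 0.00025) in Dnmt3-deficient mice.

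Mef2b (chr8:72676677-72691387, plus strand) followed the same course. Its FPKM in nB was 3.41, 0.0932 and 6.75 in Dnmt3-sufficient libraries, the second of which held a single read, and 3.48, 2.24 and 0.840 in Dnmt3-deficient ones. GCB libraries had 253, 235 and 228 in Dnmt3-sufficient and 176, 243 and 252 in Dnmt3-deficient libraries. No GCB library came near an nB library, and the rise was 6.16 ± 0.60 (limma adjusted p = 3.6e-05) and 6.21 ± 0.60 (limma adjusted p = 3.7e-05) in the 2 genotypes. In the GENCODE annotation of mm9, all 1342 exon bases of Mef2b are shared on the same strand with the gene now named Borcs8, whose transcripts can read through into it. Borcs8 had its own row in the table and stayed within 60.4 to 93.5 FPKM in nB and 89.4 to 123 in GCB.

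Fas (chr19:34365149-34402260, plus strand) had 29.1, 12.6 and 2.16 FPKM in the 3 nB libraries of Dnmt3-sufficient mice, and those of Dnmt3-deficient mice had 10.8, 14.96 and 8.43. The GCB libraries lay close together at 197.5, 198.1 and 199.96 in Dnmt3-sufficient mice, and at 247, 198 and 290 in Dnmt3-deficient ones. The groups did not overlap. The rise was 4.19 ± 0.63 (limma adjusted p = 0.00060) in Dnmt3-sufficient and 4.33 ± 0.63 (limma adjusted p = 0.00053) in Dnmt3-deficient mice. Since Fas protein was used to sort nB as negative and GCB as positive, this difference was partly set by the gate.

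Mybl1 and Basp1 were near or at 0 in nB. Mybl1 passed the filter on low values (more than 1 FPKM in at least 2 libraries) through its GCB libraries alone, and Basp1 through these and 1 BMPC library, so both could enter the test only by being high in GCB. Mybl1 (chr1:9657496-9690290, minus strand) had at most 1 read in Dnmt3-sufficient nB and at most 10 in Dnmt3-deficient nB, a highest value of 0.400 FPKM. It reached 14.6, 12.5 and 12.9 FPKM in Dnmt3-sufficient and 21.7, 13.8 and 13.3 in Dnmt3-deficient libraries. It rose by 3.82 ± 0.25 (limma adjusted p = 2.9e-06) and 3.91 ± 0.25 (limma adjusted p = 2.9e-06).

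Basp1 (chr15:25293040-25343519, minus strand) had at most 1 read in Dnmt3-sufficient nB and at most 4 in Dnmt3-deficient nB. Its GCB values were 18.98, 20.4 and 17.9 FPKM in Dnmt3-sufficient and 19.7, 26.7 and 31.7 in Dnmt3-deficient libraries, so every GCB library was far above every nB library. It rose by 4.29 ± 0.24 (limma adjusted p = 1.1e-06) in Dnmt3-sufficient and by 4.61 ± 0.24 (limma adjusted p = 8.4e-07) in Dnmt3-deficient mice. For Mybl1 and Basp1 the size of the change depends on the pseudocount of 1, because nB is so close to 0. With a pseudocount of 0.1 the rises in Dnmt3-sufficient mice became 6.90 and 7.30.

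Foxo1 (chr3:52072259-52154031, plus strand) was the only gene of the 10 called lower in GCB. The Dnmt3-sufficient nB libraries had 34.6, 40.1 and 29.2 FPKM and the GCB libraries 18.7, 14.3 and 11.2, with no overlap. The change was -1.20 ± 0.21 (limma adjusted p = 0.0015), and it missed the threshold only when 1 spread was estimated over all 18 libraries (adjusted p = 0.20). Dnmt3-deficient nB had 28.99, 31.5 and 21.8 FPKM and GCB 22.98, 21.9 and 19.4, and here the groups overlapped. The change there was -0.33 ± 0.21 (limma adjusted p = 0.27), with a 95% interval from -0.80 to 0.14. In the mm9 annotation 674 of its 5552 exon bases are shared with a noncoding gene on the other strand, and the counting is not stated to use strand.

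Bcl6, Mef2c, Pou2af1 and Id3 did not pass the test between nB and GCB. Bcl6 (chr16:23965138-23988938, minus strand) had 37.3, 28.5 and 17.8 FPKM in the nB libraries of Dnmt3-sufficient mice, and 34.3, 30.5 and 37.2 in their GCB. The Dnmt3-deficient libraries had 27.4, 14.5 and 64.1 in nB, then 44.4, 33.1 and 81.1 in GCB. The ranges of nB and GCB overlapped in both genotypes, and replicate 3 was the highest of both Dnmt3-deficient groups. The changes were 0.33 (95% interval -0.77 to 1.44) and 0.72 (-0.39 to 1.82).

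Mef2c (chr13:83643033-83806684, plus strand) hardly moved between the lymph node cells. It lay at 129, 103 and 135 FPKM in Dnmt3-sufficient and 119, 146 and 110.0 in Dnmt3-deficient nB, and at 105, 119 and 104 in Dnmt3-sufficient and 112, 114 and 108 in Dnmt3-deficient GCB. The 95% intervals of its changes, -0.44 to 0.14 and -0.45 to 0.14, exclude a change of 1. Its relative Mef2b, by contrast, was nearly absent in nB and above Mef2c in GCB.

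Id3 (chr4:135699412-135701670, plus strand) was high in both lymph node cell types. The nB libraries had 263, 244 and 331 FPKM in Dnmt3-sufficient and 288, 256 and 303 in Dnmt3-deficient libraries. The GCB libraries had 396, 402 and 326 in Dnmt3-sufficient and 359, 358 and 321 in Dnmt3-deficient libraries. Means were higher in GCB, though the ranges overlapped in Dnmt3-sufficient mice. The changes were only 0.43 ± 0.13 (limma adjusted p = 0.028) and 0.29 ± 0.13 (limma adjusted p = 0.11), under the minimum of 1.

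Pou2af1 (chr9:51021795-51048184, plus strand) was at 124, 178 and 87.2 FPKM in Dnmt3-sufficient and at 115, 127 and 172 in Dnmt3-deficient nB. GCB had 181, 248 and 216 in Dnmt3-sufficient and 202, 230 and 372 in Dnmt3-deficient libraries, so that every GCB library was above every nB library of the same genotype. The differences were 0.77 ± 0.29 (limma adjusted p = 0.066) and 0.92 ± 0.29 (limma adjusted p = 0.036). Both were short of the size required, and the first missed the p threshold as well. Leaving out Dnmt3-sufficient nB replicate 2 gave 1.03 (limma adjusted p = 0.024), and leaving out Dnmt3-deficient nB replicate 3 or GCB replicate 1 gave 1.09 in each case (limma adjusted p = 0.035 and 0.034), which passed.

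Ordered by mean FPKM in Dnmt3-sufficient GCB, the genes were Id3 (374), Rgs13 (291), Mef2b (239), Pou2af1 (215), Fas (199), Mef2c (110), Bcl6 (34.0), Basp1 (19.1), Foxo1 (14.7) and Mybl1 (13.3). Of these neighbours, the ranges of Rgs13 and Mef2b, Mef2b and Pou2af1, Pou2af1 and Fas, Basp1 and Foxo1, and Foxo1 and Mybl1 overlapped, and the other 4 pairs were apart. In Dnmt3-sufficient nB the order opened instead with Id3 (279), Pou2af1 (130), Mef2c (122), Foxo1 (34.6) and Bcl6 (27.9). These levels depend on the exon lengths behind the table. It uses 3285 bases for Bcl6, 953 for Id3, 3560 for Mybl1 and 9881 for Mef2c, where GENCODE exons join to 6700, 1791, 5375 and 7396. With the GENCODE lengths, a calculation chosen after the levels were seen, Id3 came to 199 FPKM in Dnmt3-sufficient GCB, below Rgs13 (291), Mef2b (249.6) and Pou2af1 (215). In Dnmt3-sufficient nB it came to 149, below Mef2c (163), so the first place of Id3 rests on the shorter length.

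**Figure D2:**
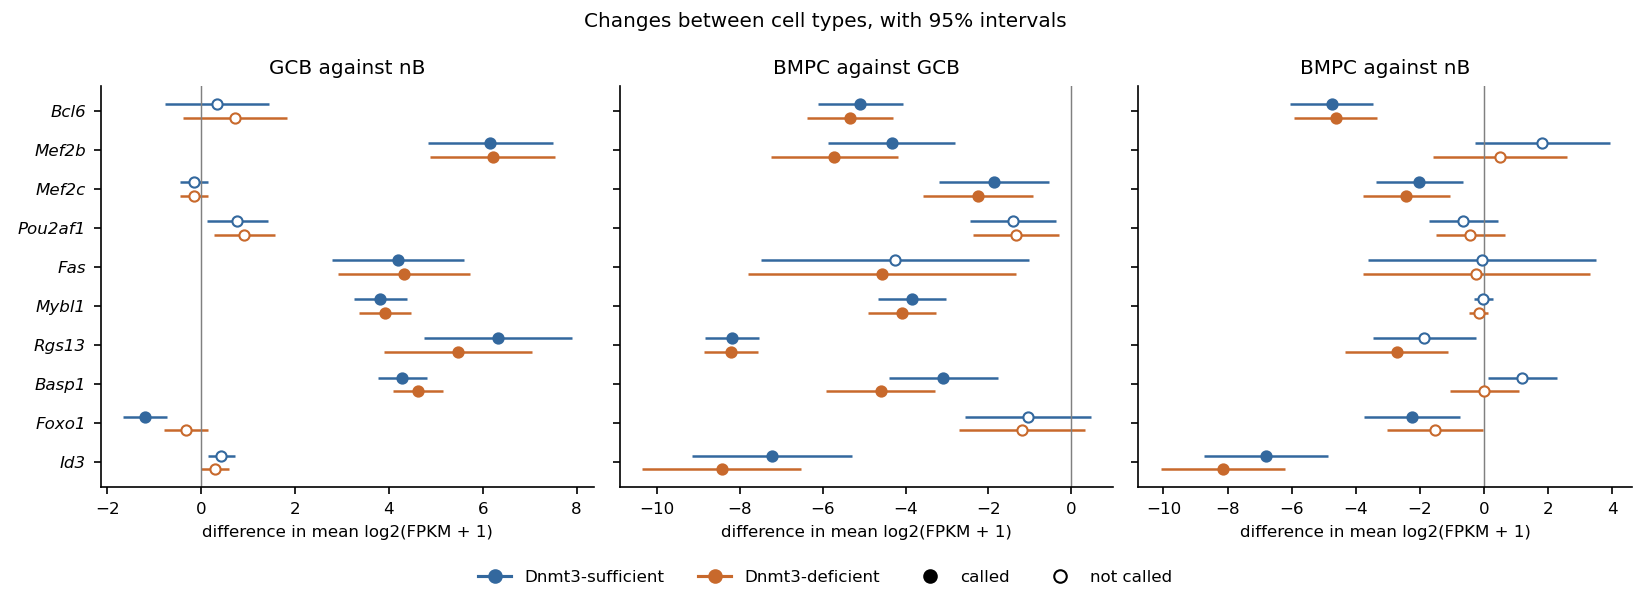
Change of each gene between cell types on the log2(FPKM + 1) scale (horizontal axis), in Dnmt3-sufficient (blue) and Dnmt3-deficient (orange) mice. Lines are 95% intervals, and filled points are changes that passed the test. In GCB against nB 5 genes lie far to the right in both genotypes, and in BMPC against GCB every point lies to the left of 0.

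The promoters of the genes that rose in GCB are shown because Dnmt3a and Dnmt3b act on CpG dinucleotides and these genes moved together. RefSeq promoters (250 bases before to 50 after the start, from a table on GRCm38.p6) were found for 9 of the 10 genes, all but Mybl1, and each matched the mm9 genome exactly once. The 250 bases before the start are printed 5′ to 3′ on the gene's strand, with every CpG in capitals. They lie at chr1:146024503-146024752 (minus strand) for Rgs13, chr8:72676410-72676659 (plus) for Mef2b, chr19:34364899-34365148 (plus) for Fas and chr15:25343520-25343769 (minus) for Basp1, all on mm9.
Rgs13: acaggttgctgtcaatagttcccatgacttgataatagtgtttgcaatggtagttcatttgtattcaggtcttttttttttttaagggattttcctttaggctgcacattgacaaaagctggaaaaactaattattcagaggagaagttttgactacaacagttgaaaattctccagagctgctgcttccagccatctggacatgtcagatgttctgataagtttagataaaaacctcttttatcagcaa
Mef2b: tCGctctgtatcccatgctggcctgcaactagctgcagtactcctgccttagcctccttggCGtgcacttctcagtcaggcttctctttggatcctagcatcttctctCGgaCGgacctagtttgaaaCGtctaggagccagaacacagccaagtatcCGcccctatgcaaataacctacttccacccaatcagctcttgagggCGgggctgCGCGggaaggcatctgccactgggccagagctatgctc
Fas: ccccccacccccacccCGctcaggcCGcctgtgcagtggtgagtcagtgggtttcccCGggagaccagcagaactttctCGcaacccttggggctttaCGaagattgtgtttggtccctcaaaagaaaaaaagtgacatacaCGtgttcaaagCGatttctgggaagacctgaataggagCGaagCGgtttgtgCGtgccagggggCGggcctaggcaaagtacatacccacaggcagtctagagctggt
Basp1: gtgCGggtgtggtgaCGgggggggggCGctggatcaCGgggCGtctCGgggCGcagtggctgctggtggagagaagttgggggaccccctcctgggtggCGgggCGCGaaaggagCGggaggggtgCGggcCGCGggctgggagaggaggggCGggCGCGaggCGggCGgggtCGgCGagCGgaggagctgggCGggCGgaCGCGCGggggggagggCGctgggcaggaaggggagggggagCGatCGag
The 4 differed widely in CpG content. Rgs13 had 0 CpG in its 300-base window, as did 5.43% of the 32851 RefSeq promoters. Mef2b had 11, Fas 14 and Basp1 38, against a median of 7 over all promoters, and 95% of promoters had fewer CpG than Basp1. These genes, which all rose from nB to GCB, ranged from a promoter without CpG to one of the richest. Methylation of these promoters was not examined here.

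The 12 windows of the 9 genes (Bcl6 has 2 and Mef2c 3) were also searched on both strands for the letters bound by the regulators among them, which describes the sequence and not binding. The octamer ATGCAAAT, on which Pou2af1 acts through its partner, was in the Mef2b window only, starting 85 bases before the start (1.74% of all promoters hold it). The BCL6 core TTCNNNGAA, which STAT factors also bind, was in 4 of the 12 windows, both of Bcl6, 1 of Mef2c and that of Fas (8.3% of all promoters). In Fas it began 93 bases before the start. The E-box CANNTG was in 8 of the 12 windows, which belong to 7 of the 9 genes, and in 72.3% of all promoters. The MEF2 letters CTANNNNTAG and the forkhead letters GTAAACA were in none of the 9, and in 3.69% and 3.65% of all promoters.

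The second comparison asked what became of the 10 genes in plasma cells. Of the 10 genes, 7 fell from GCB to BMPC in Dnmt3-sufficient and 8 in Dnmt3-deficient mice, and none rose. Among all genes, 15.6% and 20% were called lower and 5.36% and 5.17% higher in the 2 genotypes. The median change of the 10 genes was -4.04 and -4.58, or -4.29 and -4.81 with genes at 0 in every BMPC library put at the bound of 3 reads a library, against -0.56 and -0.73 over all genes. Rescaling the libraries by median of ratios moved the median of all genes by 0.16 in the Dnmt3-deficient comparison. A fall from GCB was also partly built in, since the genes were picked as germinal center genes with earlier results known. This holds most for Mybl1 and Basp1, which could enter the test only by being high in GCB.

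Rgs13 and Mybl1 had 0 reads in all 6 BMPC libraries. With each BMPC library at 3 reads, Rgs13 was at least 481-fold lower than in GCB in Dnmt3-sufficient and at least 273-fold lower in Dnmt3-deficient mice, and Mybl1 at least 47.8-fold and 32.3-fold lower. The limma adjusted p was 2.1e-07 and 1.2e-07 for Rgs13 and 8.2e-05 and 4.7e-05 for Mybl1. These were the 2 genes whose absence from BMPC was complete at this depth.

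Bcl6 was likewise nearly gone. It had 0, 1 and 0 reads in the Dnmt3-sufficient and 0, 4 and 0 in the Dnmt3-deficient BMPC libraries, against at least 891 reads in every GCB library. It fell by 5.09 ± 0.46 (limma adjusted p = 5.8e-05) and 5.34 ± 0.46 (limma adjusted p = 3.4e-05). These sizes are set by the pseudocount of 1, and with 0.1 in its place they became -8.13 and -7.84. Against nB the change was -4.75 ± 0.59 (limma adjusted p = 0.00027) and -4.63 ± 0.59 (limma adjusted p = 0.00038), or -7.78 and -7.10 with the smaller pseudocount.

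Id3 was at 14.8, 0 and 0 FPKM in Dnmt3-sufficient BMPC and at 0 in all 3 Dnmt3-deficient BMPC libraries. The single Dnmt3-sufficient library with signal held 31 reads. The change from GCB was -7.22 ± 0.87 (limma adjusted p = 0.00029) and -8.44 ± 0.87 (limma adjusted p = 0.00010), and in Dnmt3-deficient mice it was at least 184-fold lower than in GCB and at least 150-fold lower than in nB. From nB to BMPC the change was -6.79 (limma adjusted p = 0.00035) and -8.14 (limma adjusted p = 0.00015). Id3 was thus high in every lymph node library and at 0 in 5 of 6 BMPC libraries.

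Mef2b kept a small signal in BMPC. It was at 11.04, 10.9 and 10.6 FPKM in Dnmt3-sufficient BMPC and at 9.17, 6.32 and 0 in Dnmt3-deficient BMPC, below every GCB library. It fell by 4.34 ± 0.69 (limma adjusted p = 0.0015) and 5.72 ± 0.69 (limma adjusted p = 0.00027). Against nB, all 3 Dnmt3-sufficient BMPC libraries were above all 3 nB libraries, but the difference did not pass the test. Borcs8, which shares its exons, was at 59.5 to 175 FPKM in BMPC.

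Basp1 was at 5.15, 0.850 and 0.149 FPKM in Dnmt3-sufficient BMPC and at 0.330, 0 and 0 in Dnmt3-deficient BMPC, from 21 reads down to none. The change from GCB was -3.09 ± 0.59 (limma adjusted p = 0.0041) and -4.60 ± 0.59 (limma adjusted p = 0.00039), or -4.16 and -7.30 with a pseudocount of 0.1.

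Mef2c fell less and stayed clearly expressed. It was at 37.0, 33.9 and 20.2 FPKM in Dnmt3-sufficient and 39.9, 5.97 and 43.8 in Dnmt3-deficient BMPC, below every nB and GCB library. The change from GCB was -1.86 ± 0.60 (limma adjusted p = 0.048) and -2.26 ± 0.60 (limma adjusted p = 0.019), and from nB -2.01 ± 0.61 (limma adjusted p = 0.032) and -2.42 ± 0.61 (limma adjusted p = 0.014). These calls were not stable. The first was lost in 10 of 14 alternatives, among them leaving out any 1 of the 6 Dnmt3-sufficient libraries (adjusted p from 0.066 to 0.13), leaving out any Dnmt3-deficient GCB library ended the second (0.054 to 0.055), and without Dnmt3-deficient BMPC replicate 2 the changes shrank to -1.39 and -1.55. The change from nB in Dnmt3-sufficient mice was lost without any nB library, without BMPC replicate 2 or 3 and with sex as a covariate (0.055 to 0.090), and that in Dnmt3-deficient mice with voom (-2.21, adjusted p = 0.16).

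Fas varied most within BMPC. It was at 60.4, 0 and 17.7 FPKM in Dnmt3-sufficient and at 0.340, 34.0 and 22.3 in Dnmt3-deficient BMPC, so 1 library of each genotype had at most 1 read and the others 83 to 239. Every BMPC library was below every GCB library. The change was -4.25 ± 1.46 (limma adjusted p = 0.060) in Dnmt3-sufficient and -4.56 ± 1.46 (limma adjusted p = 0.041) in Dnmt3-deficient mice. The call in Dnmt3-deficient mice was lost in 8 of 14 alternatives, namely without any 1 GCB library, without BMPC replicate 1 (-3.09, limma adjusted p = 0.12), with a pseudocount of 0.1, without a filter, with rescaled libraries and with voom (limma adjusted p from 0.053 to 0.12). In Dnmt3-sufficient mice the change passed in 6 of 14 (lowest limma adjusted p = 0.014), among them the fit without BMPC replicate 1 (-5.53), and was -2.56 without replicate 2, the library at 0. The ranges of BMPC and nB overlapped.

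Pou2af1 had the highest mean of the 10 in BMPC of both genotypes. It was at 59.8, 193 and 42.6 FPKM in Dnmt3-sufficient and at 96.7, 95.8 and 114 in Dnmt3-deficient BMPC. The change from GCB was -1.42 ± 0.47 (limma adjusted p = 0.053) and -1.34 ± 0.47 (limma adjusted p = 0.058), neither of which passed. They passed in 4 of 14 and 2 of 14 alternatives (lowest limma adjusted p = 0.0013 and 0.022). Dnmt3-sufficient BMPC replicate 2 was the high library, and the change without it was -2.05.

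Foxo1 was at 10.1, 1.09 and 16.7 FPKM in Dnmt3-sufficient and at 7.61, 12.9 and 6.99 in Dnmt3-deficient BMPC. From GCB the change did not pass, at -1.05 (95% interval -2.57 to 0.47) and -1.18 (-2.70 to 0.34). In Dnmt3-sufficient mice the lowest value was again that of BMPC replicate 2, and the change was -0.14 without it and -1.68 without replicate 3.

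Between BMPC and nB, 4 of the 10 genes changed in each genotype, all downward. Among all genes 19.6% and 21.6% were called lower and 7.8% and 5.43% higher in Dnmt3-sufficient and Dnmt3-deficient mice. Bcl6, Mef2c and Id3 were among the 4 in both. The remaining one was Foxo1 in Dnmt3-sufficient mice (-2.25 ± 0.67, limma adjusted p = 0.031) and Rgs13 in Dnmt3-deficient mice (-2.72 ± 0.72, limma adjusted p = 0.019). Foxo1 lost its call without any nB library (adjusted p from 0.064 to 0.091) and changed by -1.34 without BMPC replicate 2, and Rgs13 lost its call without nB replicate 2 (0.062) or 3 (0.067) or with library weights (0.11). Since Rgs13 was at 0 in BMPC, its size is set by the pseudocount, and it was -5.79 with 0.1. The median change of the 10 genes was -1.25 (-1.33 with Rgs13 at its bound) and -0.97, against -0.70 and -0.84 over all genes.

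The third comparison asked whether the genes depended on Dnmt3a and Dnmt3b. None of the 10 was called between genotypes in nB, GCB or BMPC, where the share called among all genes was 0% in each. Markers of cell types also parted by genotype. Summed erythroid markers were 1160 to 2194 FPKM in Dnmt3-sufficient and 149 to 797 in Dnmt3-deficient BMPC, and at most 1.42 against 22.5 to 218 in nB. In BMPC plasma cell markers summed to 17008 to 26871 against 31160 to 48114 and macrophage markers to 63.5 to 87.7 against 98.4 to 227. Mature B cell markers summed to 1172 to 1650 against 1733 to 1846 in BMPC, and to 7270 to 7552 against 6449 to 7249 in nB. The germinal center markers summed to 2.58 to 7.05 against 0.947 to 1.49 in nB. None of these lists was apart in GCB. Their part in the genotype values was not tested. At an unadjusted p below 0.05 there were 592, 724 and 688 genes in the 3 cell types, and of the 10 only Foxo1 in GCB. In GCB the changes of the 10 genes ran from -0.11 to 0.54 with limma adjusted p of 0.77 or more. In nB they ran from -0.33 to 0.86 and in BMPC from -1.49 to 0.41, with limma adjusted p of 0.92 or more and 0.78 or more.

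The intervals show what these data could exclude. In GCB the 95% intervals of Mef2b (-0.50 to 0.28), Mef2c (-0.16 to 0.20), Rgs13 (-0.45 to 0.49) and Id3 (-0.38 to 0.16) exclude a change of 1 in either direction, and those of Fas, Basp1, Mybl1 and Pou2af1 end below 1 as well. Those of Bcl6 (-0.33 to 1.38) and Foxo1 (0.02 to 1.05) in GCB do not, and that of Foxo1 was the only one of the 10 to leave out 0. In BMPC the interval of Fas ran from -5.24 to 5.19 and that of Mef2b from -4.16 to 1.17, so large differences there were not detectable.

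Foxo1 in GCB was the one gene of the 10 whose Dnmt3-deficient libraries (22.98, 21.9 and 19.4 FPKM) were all above the Dnmt3-sufficient ones (18.7, 14.3 and 11.2), a separation that 10.6% of all genes showed in GCB. The difference was 0.54 ± 0.20 (unadjusted p = 0.043, limma adjusted p = 0.77) and so failed the correction. In BMPC, Mef2b was lower in all 3 Dnmt3-deficient libraries, as 10.3% of genes were on 1 side or the other there, and in nB no gene of the 10 was apart (8.84% of all genes).

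Whether the cell type changes themselves differed by genotype was tested as an interaction. None of the 10 was called for GCB against nB, BMPC against GCB or BMPC against nB, where 0.0347%, 0.226% and 0.226% of all genes were called. Foxo1 came nearest in GCB against nB, where its fall was 0.87 ± 0.30 smaller in Dnmt3-deficient mice (unadjusted p = 0.015, limma adjusted p = 0.77). That Foxo1 passed the test of the fall in 1 genotype and not in the other is therefore not a difference shown between them.

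**Figure D3:**
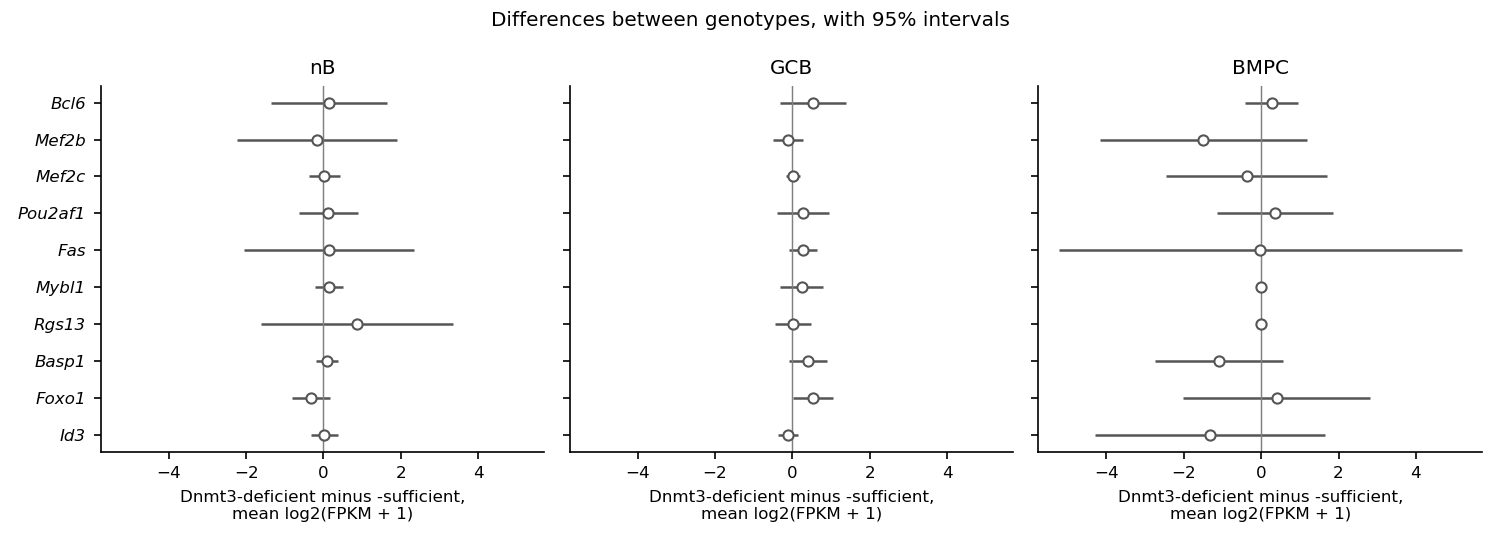
Difference between Dnmt3-deficient and Dnmt3-sufficient libraries of each gene on the log2(FPKM + 1) scale (horizontal axis), in nB, GCB and BMPC. Lines are 95% intervals and open points mark that none passed the test. The widest intervals are those of Fas, Id3 and Mef2b in BMPC, and those of Mybl1 and Rgs13, at 0 in every BMPC library, have almost no width there. That width comes from identical values at 0 and does not measure precision.

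Other genes of the program were read from lists. Beside them, 11.4% and 10% of all genes were called higher and 15% and 13.5% lower in GCB against nB in the 2 genotypes, with medians of -0.11 and -0.13. In BMPC against GCB, 5.36% and 5.17% were called higher and 15.6% and 20% lower, with medians of -0.56 and -0.73. Of 22 other germinal center genes 21 were in the table and tested, and 9 were higher and 5 lower in GCB than in nB in either genotype, with a median change of 0.60 and 0.83. Those lower in both genotypes were Ccnd3, Cxcr5, Lmo2 and Pax5. The 4 with the largest change in Dnmt3-sufficient mice all rose, Gcsam, Rassf6 and S1pr2 among them. Gcsam, a germinal center signalling adaptor, was at 299 ± 27.6 FPKM (SD, n = 3) in Dnmt3-sufficient and 259 ± 46.5 in Dnmt3-deficient GCB and had 0 reads in every nB library. Rassf6 was at 130 ± 8.45 and 144 ± 7.29, and S1pr2, a receptor that confines B cells to the germinal center, at 110.6 and 92.1 on average. From GCB to BMPC 18 of the 21 fell in each genotype and none rose, with medians of -3.88 and -3.84 (-3.71 with genes at 0 put at their bound).

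Of 14 relatives of the 10 genes 11 were tested (not Foxo3, Rgs16 and Bcl6b, which were too low). In GCB 5 of the 11 were higher than in nB in each genotype, and Mef2d was lower in Dnmt3-deficient mice. The median change was 1.22 and 1.12, or 2.06 and 1.71 with Id1 at its bound. Among those that rose were 3 other members of the Rgs family. In Dnmt3-sufficient mice Rgs1 went from 0.0298 to 104 FPKM, Rgs10 from 4.28 to 62.4 and Rgs2 from 11.8 to 72.7. They parted in BMPC, where Rgs1 had 0 reads in Dnmt3-sufficient mice while Rgs10 rose to 131 ± 28.4 FPKM (1.05, limma adjusted p = 0.021). From GCB to BMPC, 3 of the 11 were higher in each genotype and 2 and 3 were lower, with medians of -1.22 and -1.12 (-1.27 and -0.63 with bounds). Mybl2, a relative of Mybl1 with a role in cell division, was at 8.96 ± 0.367 FPKM in Dnmt3-sufficient GCB and 0.0404 ± 0.0699 in nB.

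Of 12 genes known as repressed by Bcl6, 5 were lower and 2 higher in Dnmt3-sufficient GCB than in nB, and 4 were lower and 2 higher in Dnmt3-deficient GCB, with medians of -0.32 and -0.37. S1pr1, the receptor for exit from the lymph node, fell by 4.97 and 4.59 on the log2 scale, Gpr183, which guides B cells to follicle borders, by 4.80 and 4.88, and Bcl2, which blocks cell death, by 4.47 and 4.67. The largest limma adjusted p of these was 0.00071. Id2 went the other way, from 11.4 ± 6.21 to 63.7 ± 1.33 FPKM in Dnmt3-sufficient mice. In BMPC 4 of the 12 were higher than in GCB in each genotype, Bcl2, Ccnd2 and Id2 in both, and 2 and 1 were lower, with medians of 0.99 and 0.28. Prdm1, named after its values were seen, was at 0.473 ± 0.333 FPKM in Dnmt3-sufficient GCB and at 7.16 ± 6.90 in BMPC, where the change did not pass (2.02, limma adjusted p = 0.10), and it rose by 4.21 (limma adjusted p = 0.0041) in Dnmt3-deficient mice.

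Of 8 genes known as Foxo1 targets, 5 fell from nB to GCB in each genotype, Ccr7, Klf2, S1pr1 and Il7r among them, and none rose, with medians of -2.04 and -2.30 (-3.66 and -3.43 with Il7r at its bound). In Dnmt3-sufficient mice the chemokine receptor gene Ccr7 went from 143 ± 21.3 to 1.46 ± 1.31 FPKM and Klf2 from 22.3 ± 9.24 to 2.64 ± 1.57. S1pr1 stands in this list and in that of Bcl6. From GCB to BMPC 2 of the 8 rose in each genotype, Il7r among them, and none fell, with medians of 0.54 and 0.09 (2.02 and 1.27 with bounds), beside the early B cell RNA in these libraries. In Dnmt3-deficient mice Ccr7 fell by 5.65 from nB to GCB (limma adjusted p = 3.9e-05).

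The E proteins that Id3 binds did not move together. Tcf3 rose in GCB of both genotypes, from 4.91 ± 1.07 to 11.3 ± 3.07 FPKM in Dnmt3-sufficient mice, Tcf4 was at 27.8 ± 9.21 in nB and 33.6 ± 0.955 in GCB and did not pass, and Tcf12 fell in Dnmt3-sufficient mice alone by the test (-1.80, limma adjusted p = 0.013, against -0.87, adjusted p = 0.19, a difference that was not called). The median was 0.31 and 0.15 in GCB against nB and -1.51 and -1.03 in BMPC against GCB, where Tcf3 fell and the others did not pass.

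Of 7 genes of Fas signalling, 2 rose with Fas in GCB of both genotypes. One was Bid, which carries the death signal to mitochondria and went from 48.9 ± 14.2 to 155 ± 5.89 FPKM in Dnmt3-sufficient mice. The initiator Casp8 was at 64.0 ± 7.60 in nB and 41.5 ± 7.04 in GCB and was not called. Fasl, the ligand, had 0 reads in every GCB and BMPC library. The medians were 0.03 and 0.01. From GCB to BMPC 2 and 3 of the 7 fell, Bid and Faim in both genotypes, with medians of -0.71 and -1.53 against -0.56 and -0.73 over all genes.

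**Figure D4:**
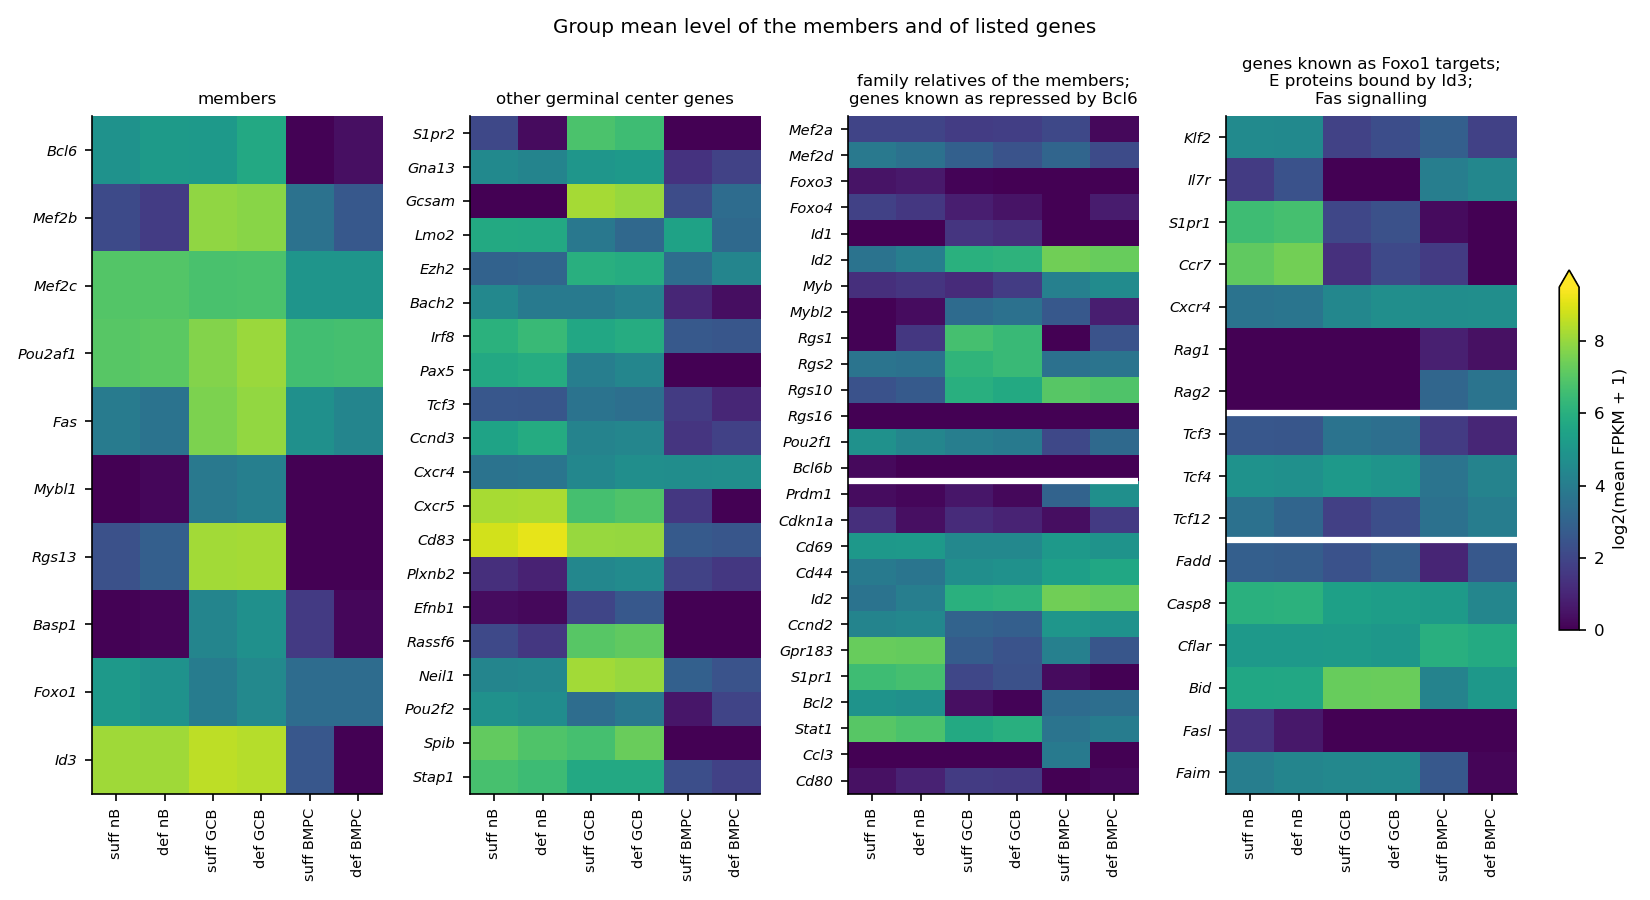
Mean level of the 10 genes and of listed genes in each of the 6 groups (columns, 3 libraries each), as log2(mean FPKM + 1) by colour, with Dnmt3-sufficient (suff) and Dnmt3-deficient (def) groups side by side. S1pr2, Gcsam and Rassf6 share the bright GCB columns of Rgs13 and Mef2b, while Ccr7 and S1pr1 are bright in nB.

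The genes nearest in pattern to each member were found as the lowest root mean square difference of centred log2(FPKM + 1) over the 18 libraries. Mybl1 was nearest to Mlf1 (0.275) and 2510009E07Rik (0.330), and Basp1 to BC030867 (0.335) and Kif23 (0.598). Rgs13 was nearest to Rassf6 (0.684) and S1pr2 (1.26), and Mef2b to the cell division genes Tpx2 (0.980) and Top2a (1.00). Fas had the loosest match, with Ezh2 (1.16) and Ndc1 (1.19). Bcl6 was nearest to Slamf1 (0.622) and Pik3ap1 (0.632), and Id3 to Ell3 (0.926) and Cxcr5 (1.01). Mef2c was nearest to Exoc3 (0.367) and Nxf1 (0.430), Pou2af1 to Psmd12 (0.416) and Scd2 (0.429), and Foxo1 to Rnf44 (0.346) and Atp2b1 (0.415). Summed FPKM of 6 markers of dividing cells was 997 to 1089 in GCB, 1.36 to 20.9 in nB and 164 to 333 in BMPC, so dividing cells moved with the genes that rose in GCB, and their part in those changes was not tested.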

How the data were processed

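RNA-seq of 18 libraries, 3 in each of 6 groups, was read from 1 table of FPKM per gene as deposited. The authors aligned reads with TopHat to mm9, kept unique hits, counted them over UCSC KnownGene exons and scaled the counts to FPKM, and their own tests used edgeR 3.12.1 in R 3.2.2. Their columns of fold changes and p-values were not used. Every value times exon length gave whole reads (100% within 0.05), so depth and reads could be recovered. GCB and nB libraries are deeper than BMPC and therefore more precise for low genes.

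FPKM was tested on the log2(FPKM + 1) scale with limma 3.58.1 in R 4.3.3, one mean per group, moderated with an intensity trend, two-sided, fitted to the libraries of the cell types compared. The unit being FPKM, a count model was not the main test. The filter asked for more than 1 FPKM in 2 or more libraries. By the study's counts of mice, each nB and BMPC library came from its own mouse and each GCB library from its own pool of 2. A floor of 3 reads a library stands in for groups at 0 and covers counting error only. The method was also run on simulated data. There it recovered no changed gene at the smallest change simulated between genotypes, and in BMPC almost none even at the largest. Alternatives were a pseudocount of 0.1, other filters, median of ratios scaling, all 18 libraries in 1 fit, library weights, voom on recovered reads, sex, a replicate block and each library left out.

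The genes, and the lists they are set beside, were chosen with earlier results of these data known. Named genes are the 10 members, the 2 nearest in pattern to each, and up to 4 genes a list with the largest change from nB to GCB in Dnmt3-sufficient mice. Other list members named were chosen after their values were seen. Some listed genes are counted with their list but not reported here by name.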

Additional observations from a re-analysis of the deposited data

How the results depend on the processing

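For the 10 genes, no change of GCB against nB or of BMPC against GCB turned direction in any alternative. Nor did any called change of BMPC against nB. Between genotypes, direction was followed for Foxo1 in GCB and in the interaction of GCB against nB only, where it held. The other changes, many of them near 0, were not followed in this way. The outcome of the test, called or not called, was also compared, so genes that were never called count as unchanged. For GCB against nB it was the same in every alternative for 8 of 10 genes in Dnmt3-sufficient mice. In Dnmt3-deficient mice it was the same for 9 of 10, and for BMPC against GCB for 7 of 10 in each genotype. For BMPC against nB, 4 genes were called in Dnmt3-sufficient mice, and leaving out 1 library gave from 2 to 4, the 2 arising without nB replicate 2 or 3. Calls of Mef2c, Fas, Foxo1 and Rgs13 were lost in some alternatives, with the values given beside each gene, and the cause was not tested. Between genotypes none of the 10 was called in any alternative. Same-numbered GCB libraries did not deviate together (correlations 0.026, -8.1e-05 and -0.017), and with the replicate block 0 genes were called and Foxo1 stayed at 0.54 (limma adjusted p = 0.74).

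Over all genes, 1 fit to 18 libraries called 1631 in place of 3050 genes (GCB against nB, Dnmt3-sufficient) and 1489 in place of 2712 (Dnmt3-deficient). Between genotypes, where 0 were called, it gave 6 in nB and 459 in BMPC, a pseudocount of 0.1 gave 9 in nB, voom 26 in BMPC, and leaving out 1 library up to 6 in nB and 5 in GCB. The interaction of GCB against nB had 4 calls, with 11 at the lower pseudocount, 7 without a filter and 0 with the stricter filter, the 18-library fit, voom or sex. That of BMPC against GCB had 26, with 49 (18 libraries), 43 (voom), 15 (weights) and 16 (sex), and that of BMPC against nB 26, with 64 (18 libraries). Leaving out 1 library gave 0 to 14, 14 to 132 and 18 to 109 for the 3. Low depth limits what can be said of genes near 0 in BMPC.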
